A study of Rattus norvegicus with 34 samples.

Results

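Cytosolic sulfotransferases are a family of liver enzymes, and 5 of their genes, Sult1e1, Sult2a2, Sult2a6, Sult1a1 and Sult1b1, were followed here by the probe sets annotated to these symbols. Each gene had 1 such probe set on the array, out of 11984 genes with a probe set in Brown Norway and 11943 in F344 rats. All livers came from male rats, 34 in number, with 1 array per animal. In Brown Norway rats, toluene-dosed and control animals of 4, 12 and 24 months were compared, with 3 rats in each of the 6 groups. Dosed rats were given the solvent toluene at 1 g/kg in corn oil by gavage and killed 4 h later. The labels of the controls say that they had no treatment, so that gavage, corn oil and toluene cannot be told apart. F344 rats of 6, 11, 18 and 24 months, 4 per age, were untreated. Both strains are inbred, no group carries a genetic change, and the Brown Norway rats were housed singly, while the F344 rats stayed with their supplier until shortly before they were killed.

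Sulfotransferases move a sulfonate group from the donor PAPS to hydroxyl groups of hormones, bile acids and foreign compounds, which mostly makes them more soluble and ends their activity. In rat liver several of these genes are known for a sex difference: the estrogen sulfotransferase Sult1e1 is known as a male-predominant gene, while the hydroxysteroid sulfotransferases of the Sult2a group, which act on dehydroepiandrosterone and bile acids, are known as female-predominant. Sult1a1 encodes the main phenol sulfotransferase, and Sult1b1 an enzyme that acts on thyroid hormones and small phenols. Toluene is oxidised in liver to benzyl alcohol and, in small part, to cresols, and cresols are substrates of sulfotransferases.

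The genes that changed lie in 2 clusters of the rat genome, and the sequences before their start sites are shown because Sult2a2 and Sult2a6 moved in one direction and Sult1e1 in the other. In the RefSeq annotation of build GRCr8, Sult1e1 and Sult1b1 lie on chromosome 14 with 1 protein-coding gene, Sult1d1, between them. Sult2a6 and Sult2a2 lie on chromosome 1 with 2 protein-coding genes between them, of which 1 is Sult2a1. All 5 genes were found in the RefSeq promoter table by symbol. The 250 bases before the start site are printed 5′ to 3′ on the gene's own strand, for Sult1e1 (chr14:20701230-20701479, plus strand), Sult2a2 (chr1:85104533-85104782, minus strand), Sult2a6 (chr1:84097809-84098058, minus strand) and the neighbour Sult2a1 (chr1:84638948-84639197, minus strand), which had no probe set of its own in the annotation used. Capitals mark the matches to the searched motifs.
Sult1e1: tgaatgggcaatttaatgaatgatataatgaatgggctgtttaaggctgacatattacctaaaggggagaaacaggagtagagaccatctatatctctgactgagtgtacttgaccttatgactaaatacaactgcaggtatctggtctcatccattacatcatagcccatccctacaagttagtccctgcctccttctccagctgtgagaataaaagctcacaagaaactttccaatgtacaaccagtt
Sult2a2: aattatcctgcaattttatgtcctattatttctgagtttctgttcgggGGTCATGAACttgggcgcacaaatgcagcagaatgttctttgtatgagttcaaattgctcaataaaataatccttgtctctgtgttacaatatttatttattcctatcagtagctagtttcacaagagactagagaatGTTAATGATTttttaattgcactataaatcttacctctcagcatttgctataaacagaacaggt
Sult2a6: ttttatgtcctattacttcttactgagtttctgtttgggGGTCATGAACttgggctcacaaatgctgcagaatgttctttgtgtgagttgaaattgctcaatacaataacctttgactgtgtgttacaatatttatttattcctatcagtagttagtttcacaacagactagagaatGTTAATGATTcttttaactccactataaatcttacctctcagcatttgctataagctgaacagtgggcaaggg
Sult2a1: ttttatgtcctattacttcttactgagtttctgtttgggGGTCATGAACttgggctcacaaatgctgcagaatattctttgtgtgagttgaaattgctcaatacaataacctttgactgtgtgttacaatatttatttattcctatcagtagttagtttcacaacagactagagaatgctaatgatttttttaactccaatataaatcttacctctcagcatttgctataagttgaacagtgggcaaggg
The first capitals in the Sult2a sequences are the letters GGTCATGANC of an inverted repeat without a spacer (IR0), a layout known from Sult2a promoters as a target of nuclear receptors. This motif lay at -202 to -193 in Sult2a2 and at -211 to -202 in Sult2a6 and Sult2a1, counted from the start site, and was in 0.113% of the 27457 RefSeq promoters of the same length. The second capitals are the letters GTTAATNATT of an HNF1 site, at -64 to -55 in Sult2a2 and -73 to -64 in Sult2a6, which 0.331% of promoters held. The STAT5 letters TTCNNNGAA, present in 7.52% of promoters, were in none of the 5 windows. The HNF4 letters CAAAGTNCA, present in 1.03%, were found in Sult1b1 alone, at -62 to -54. Motifs were searched on both strands, none of the matches overlapped another, and the motifs were chosen with the sequences in view. Sult2a6 and Sult2a1 were identical at 245 of 250 positions, and a global alignment of Sult2a2 with Sult2a6 gave 219 identical positions over 263 columns. Whether the Sult2a6 and Sult2a2 probe sets also read RNA of such close relatives was not tested, since no probe sequences were used here.

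In F344 rats, Sult1e1 fell and Sult2a2 and Sult2a6 rose at 24 months, while Sult1a1 and Sult1b1 did not pass the test. Sult1e1 had signals of 6501, 5988, 6257 and 6712 on the 6-month arrays. At 11 months its signals were 5354, 5914, 6693 and 6137, and at 18 months 6281, 4296, 3404 and 5339. At 24 months they were 472, 173, 342 and 132. The 24-month arrays lay far below every array of the younger ages, whereas the ranges of neighbouring younger ages overlapped. Group means were 6365 ± 312, 6024 ± 554, 4830 ± 1249 and 280 ± 157 from 6 to 24 months (SD, n = 4 each). Sult1e1 was 25.8-fold lower at 24 than at 6 months (log2 fold change -4.69, SE 0.30, adjusted p = 6.25e-08, limma over all genes tested). Against 11 months the log2 fold change was -4.61 (adjusted p = 8.82e-08), and against 18 months -4.25 (adjusted p = 1.83e-07). The difference between 18 and 6 months was -0.43 on the log2 scale, with a 95% confidence interval of -1.06 to 0.19, and did not pass (adjusted p = 0.652).

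Sult2a2 was not above the floor of 32 signal units on any of the 12 arrays of 6, 11 and 18 months. At 24 months it was above it on every array, with signals of 48.1, 235, 103 and 282 (mean 167 ± 110, SD, n = 4). The gene thus entered the test only through the 24-month arrays, so that a difference was built in by the filter, and its fold is a lower bound, set against the floor. It was at least 4.21-fold higher at 24 than at 6 months (log2 fold change at least 2.07, SE 0.36, limma adjusted p = 0.00226). Since all 12 younger arrays were set to the floor, the comparisons with 11 and 18 months repeat the same bound and add no support of their own. On the 24-month arrays the order of Sult2a2 was the exact reverse of that of Sult1e1: the array with the most Sult1e1, at 472, had the least Sult2a2, at 48.1, and the array with 132 for Sult1e1 had 282 for Sult2a2. This is a description of 4 animals.

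Sult2a6 varied more within the younger groups than the other 3 genes that were above the floor there. Its signals were 139, 327, 336 and 578 at 6 months, and 241, 586, 878 and 822 at 11 months. At 18 months they were 846, 895, 959 and 200. At 24 months they were 1639, 2150, 2411 and 2248. Every 24-month array lay above every younger array, while the 3 younger ages overlapped. The group means were 345 ± 180, 632 ± 289, 725 ± 353 and 2112 ± 333 from 6 to 24 months (SD, n = 4 each). Sult2a6 was 6.81-fold higher at 24 than at 6 months (log2 fold change 2.77, SE 0.50, limma adjusted p = 0.00292) and 3.70-fold higher than at 11 months (log2 fold change 1.89, adjusted p = 0.0406). The call against 11 months was lost under 10 of 20 alternatives, among them leaving out any 1 array of 24 months (1.20 to 2.10 over the alternatives, limma adjusted p up to 0.105). Against 18 months the log2 fold change of 1.76 did not pass (adjusted p = 0.0998). The means of 11 and 18 months lay between those of 6 and 24 months, but neither the difference of 11 from 6 months (0.88, 95% confidence interval -0.19 to 1.95, adjusted p = 1) nor that of 18 from 6 months (1.01, interval -0.06 to 2.08, adjusted p = 0.462) passed.

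Sult1a1 had signals of 2721, 3457, 3533 and 4213 at 6 months and of 2624, 3899, 3709 and 4474 at 11 months. At 18 months they were 4413, 3650, 3670 and 2570, and at 24 months 3368, 3825, 3531 and 3164. All neighbouring ages overlapped. The log2 difference of 24 from 6 months was 0.01, with a 95% confidence interval of -0.37 to 0.39 (limma adjusted p = 0.990). Sult1b1 averaged 4036 ± 550, 3987 ± 438, 4467 ± 682 and 4498 ± 351 from 6 to 24 months (SD, n = 4 each), and its log2 difference of 24 from 6 months was 0.16, with an interval of -0.12 to 0.45 (adjusted p = 0.557).

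**Figure D1:**
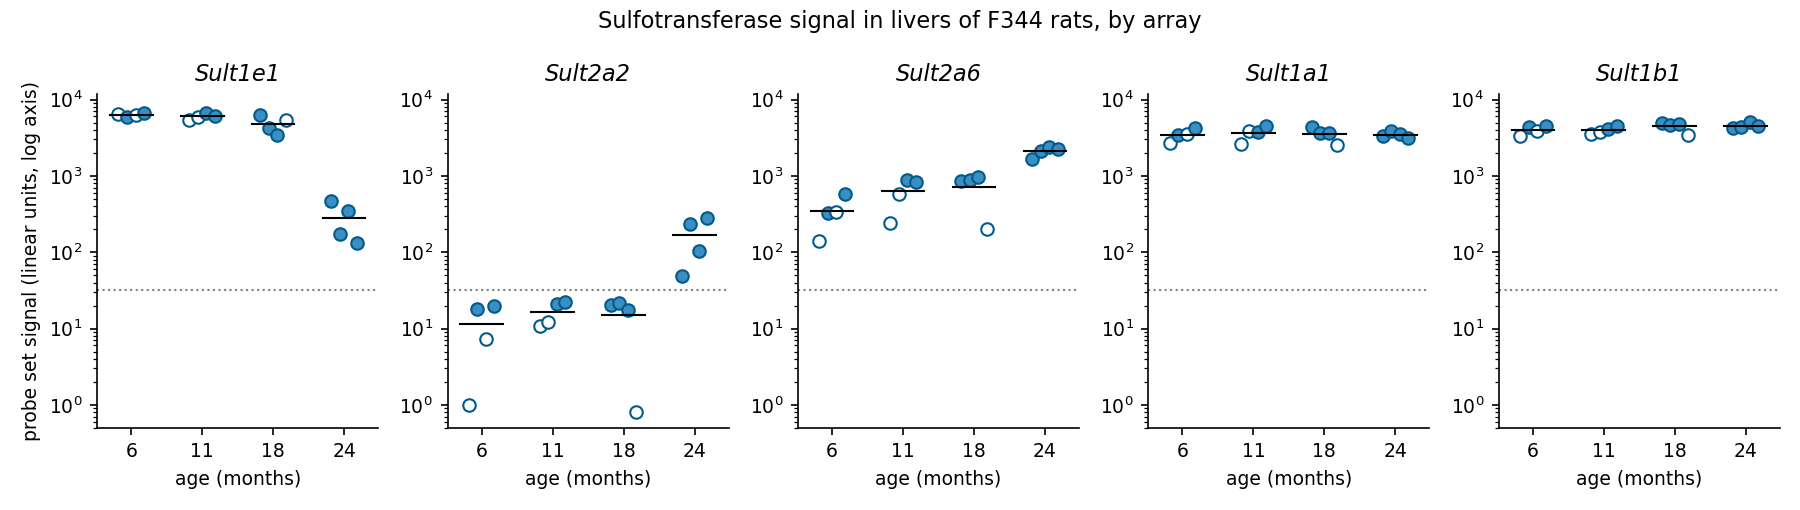
Signal of the 5 sulfotransferase genes on each F344 array (points, log axis) by age in months, with the group mean as a bar, n = 4 rats per age; open points are arrays with a GAPDH ratio above 2.5 and the dotted line is the floor of 32. At 24 months Sult1e1 lies between 132 and 472, below every younger array, and Sult2a6 between 1639 and 2411, above every younger array.

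Sult1e1 and Sult2a6 passed between 24 and 6 months, where 7.40% of the 9206 genes tested did. Both also passed between 24 and 11 months, where the share over all genes was 4.92%, and Sult1e1 passed between 24 and 18 months, where it was 1.76%. Sult2a2 passed in all 3, but is not read against these shares, since it was tested only through the 24-month arrays. None passed in the comparisons among the younger ages, where the shares over all genes were 1.08% for 18 against 6 months, 0.293% for 18 against 11 months and 0.00% for 11 against 6 months. With a limma p under 0.05 before adjustment, 357 genes were counted in the last of these. The median log2 difference over the 5 genes between 24 and 6 months was 0.16, against -0.01 over all genes tested. The 3 contrasts of 24 months share the same 24-month arrays. The 5 genes were chosen with earlier results of these data known, so setting their calls beside these shares is no test.

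A sign of RNA integrity moved with part of these values. GAPDH is read by a probe set at the 3′ end and another at the 5′ end of its transcript, and the 3′ signal over the 5′ signal was 4.35, 1.66, 2.96 and 1.93 on the 6-month arrays. It was 7.33, 3.74, 1.88 and 1.49 at 11 months, 1.88, 1.31, 1.65 and 5.31 at 18 months and 1.74, 1.38, 1.94 and 2.17 at 24 months, in the same array order as the signals above. The ratios above 2.5 were thus all at the younger ages. On the 3 arrays with a ratio above 4, a limit set with the values in view, Sult2a6, Sult1a1 and Sult1b1 were each the lowest of their group. There Sult2a6 was at 22.2% to 33.7% of the mean of its group's other arrays, Sult1a1 at 65.2% to 72.9% and Sult1b1 at 72.2% to 86.4%. Sult1e1 was the lowest of its group on 1 of the 3, at 85.7% to 115% of the others. What part the ratio has in these levels was not tested.

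Without the 5 arrays above a ratio of 2.5, Sult2a6 averaged 453 at 6 months (n = 2), 850 at 11 months (n = 2), 900 at 18 months (n = 3) and 2112 at 24 months (n = 4). Its log2 difference of 24 from 6 months was then 2.27 (limma adjusted p = 0.000827), and that of 24 from 18 months, which did not pass with all arrays, was 1.22 and did (adjusted p = 0.0171). Sult1e1 differed by -4.68 between 24 and 6 months without them (adjusted p = 0.000827). Sult2a2 kept its bound of 2.07 but no longer passed (adjusted p = 0.0717).

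**Figure D2:**
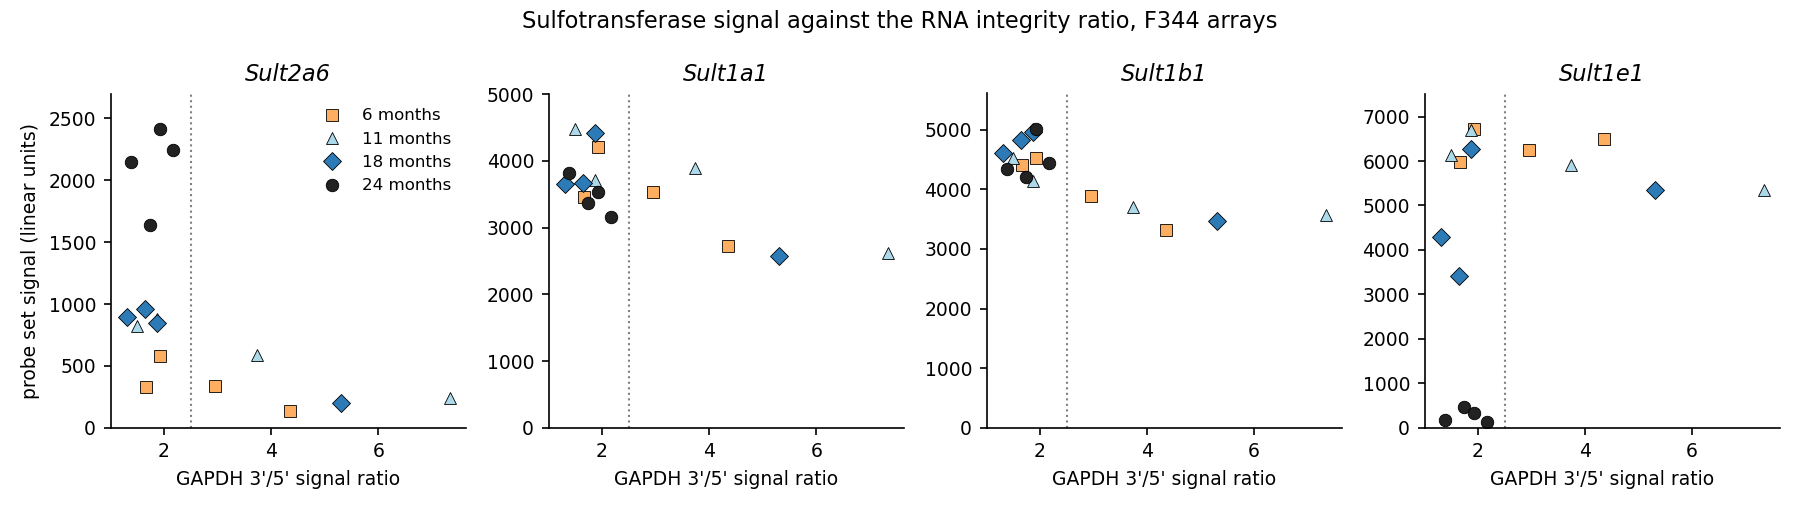
Signal of Sult2a6, Sult1a1, Sult1b1 and Sult1e1 (linear axis from 0) against the GAPDH 3′/5′ ratio, 1 point per F344 array, with age by symbol and the limit of 2.5 as a dotted line. The 3 arrays at ratios above 4 have the lowest Sult2a6, Sult1a1 and Sult1b1 of their age, and no 24-month array has a ratio above 2.17.

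In Brown Norway rats, no sulfotransferase passed in any of 16 comparisons of age, toluene or their combination. Limma called 0 of 64 tests of the 4 genes tested there, with 1 at an unadjusted p under 0.05. The 16 comparisons combine the same 6 groups and 18 arrays, so the 64 tests are not independent. Sult1e1 was between 3330 and 4633 on all 18 arrays. In toluene-dosed rats its signals were 4269, 3651 and 4633 at 4 months, 4562, 4528 and 3722 at 12 months and 3883, 3949 and 3330 at 24 months. In control rats they were 3972, 3727 and 4131 at 4 months, 3598, 4324 and 3610 at 12 months and 3456, 3779 and 4084 at 24 months. All 6 groups overlapped their neighbours in the order of the means. In controls the log2 difference of 24 from 4 months was -0.07, with a 95% confidence interval of -0.34 to 0.20 (adjusted p = 0.925).

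Sult2a6 had signals of 887, 816 and 607 in dosed rats of 4 months, 883, 691 and 1553 in those of 12 months and 1343, 1232 and 935 in those of 24 months. In control rats the signals were 937, 861 and 1131 at 4 months, 1256, 860 and 432 at 12 months and 1191, 1063 and 1780 at 24 months. Dosed and control rats overlapped at each age. The control difference of 24 from 12 months, 0.76 on the log2 scale, was the 1 test below 0.05 before adjustment (limma adjusted p = 0.335). Over both arms the difference of 24 from 4 months was 0.52, with an interval of -0.0029 to 1.04 (adjusted p = 0.470).

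Sult1a1 lay between 4193 and 5774 and Sult1b1 between 3303 and 4429 over the 18 Brown Norway arrays. Sult2a2 was below the floor on each of the 18 arrays and was not tested. At 24 months the Brown Norway controls were therefore without a Sult2a2 signal above the floor, at 9.57, 10.9 and 17.7.

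The toluene effect did not pass for any of the 4 genes tested. Averaged over the ages, toluene-dosed minus control rats differed by 0.07 on the log2 scale for Sult1e1 (95% confidence interval -0.09 to 0.23), by -0.06 for Sult2a6 (-0.49 to 0.36), by -0.02 for Sult1a1 (-0.17 to 0.13) and by 0.05 for Sult1b1 (-0.09 to 0.19). The interval for Sult2a6 was the widest of the 4. The limma adjusted p was 0.932 to 0.982, and 0.0699% of the 8584 genes passed.

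**Figure D3:**
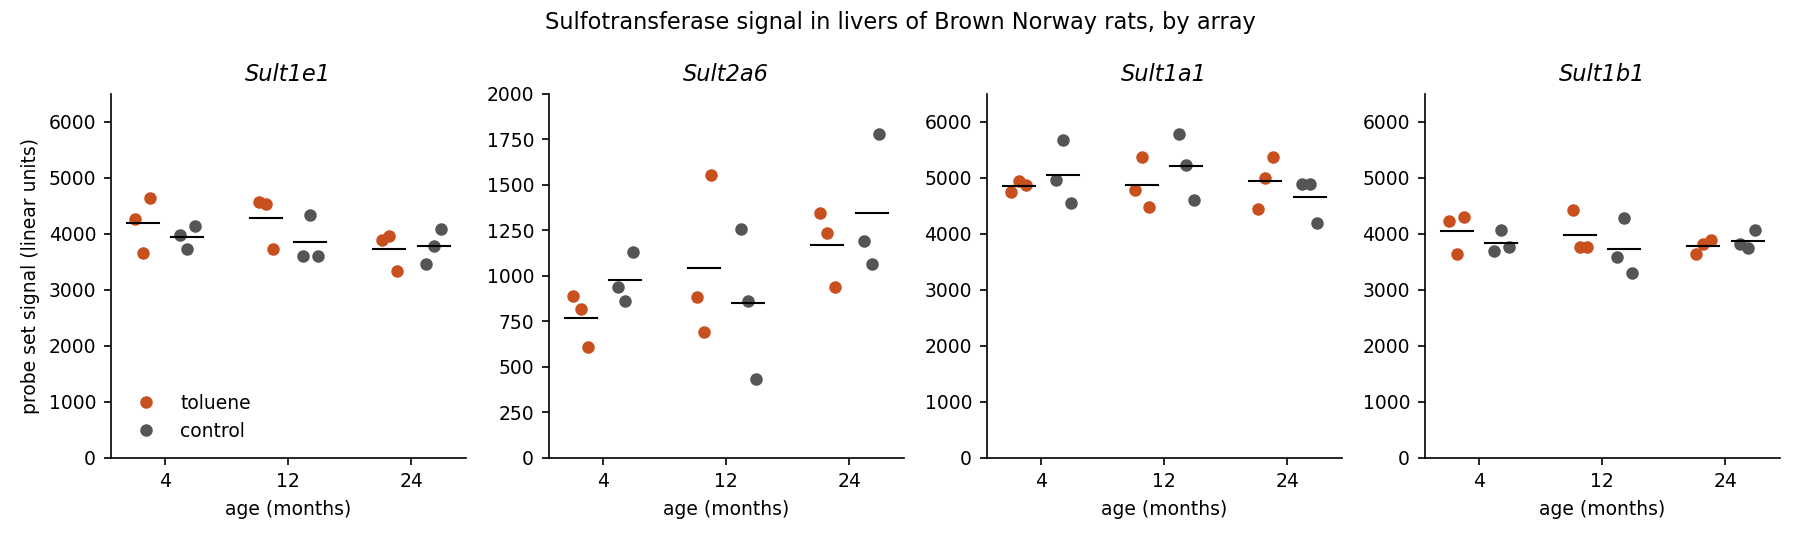
Signal of the 4 sulfotransferase genes tested in Brown Norway rats on each array (points, linear axis from 0) by age in months, toluene-dosed left of control, with the group mean as a bar, n = 3 rats per group. Dosed and control points overlap at every age for all 4 genes; the axis for Sult2a6 ends at a lower value than the others.

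Few genes of any kind passed in this strain, which is the background for these counts. Among the dosing comparisons the shares of all genes were 0.0233% at 4 months, 0.0349% at 12 months and 0.0582% at 24 months. For a toluene effect that differed between ages they were 0.00% for 12 against 4 months, 0.0116% for 24 against 4 months and 0.0349% for 24 against 12 months. In controls the shares were 0.00% for 12 against 4 months, 0.245% for 24 against 4 months and 0.0233% for 24 against 12 months. In toluene-dosed rats they were 0.00%, 0.268% and 0.0932% for the same pairs of ages, and over both arms 0.00%, 0.850% and 0.128%. Where no gene passed, limma gave 270 genes with an unadjusted p under 0.05 for the toluene effect of 12 against 4 months, and 335, 211 and 280 for 12 against 4 months in controls, dosed rats and both arms.

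The age effect on Sult1e1 differed between the strains. The difference of 24 from 4 months in Brown Norway controls minus that of 24 from 6 months in F344 rats was 4.62 on the log2 scale (SE 0.32, 95% confidence interval 3.96 to 5.28, adjusted p = 1.91e-11, from the limma estimates of both strains). Sult1e1 was the only one of the 4 genes tested in both strains to pass, where 0.490% of 7956 genes did. Sult2a2, below the floor on all 18 Brown Norway arrays, was not in this comparison. For Sult2a6 the difference was -2.33 (SE 0.61), and it did not pass (adjusted p = 0.0773). For Sult1a1 it was -0.13 (-0.57 to 0.32) and for Sult1b1 -0.15 (-0.51 to 0.21). In the middle of life, 12 against 4 months in Brown Norway controls minus 11 against 6 months in F344 rats, none of the 4 passed and 0.00% of genes did, with 250 genes at an unadjusted p under 0.05. The strains were deposited with different signal distributions and different youngest ages, and their GAPDH ratios did not overlap, at 0.774 to 0.944 for Brown Norway against 1.31 to 7.33 for F344 arrays, so levels were not compared between them. The part of these differences in the strain contrast was not tested.

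**Figure D4:**
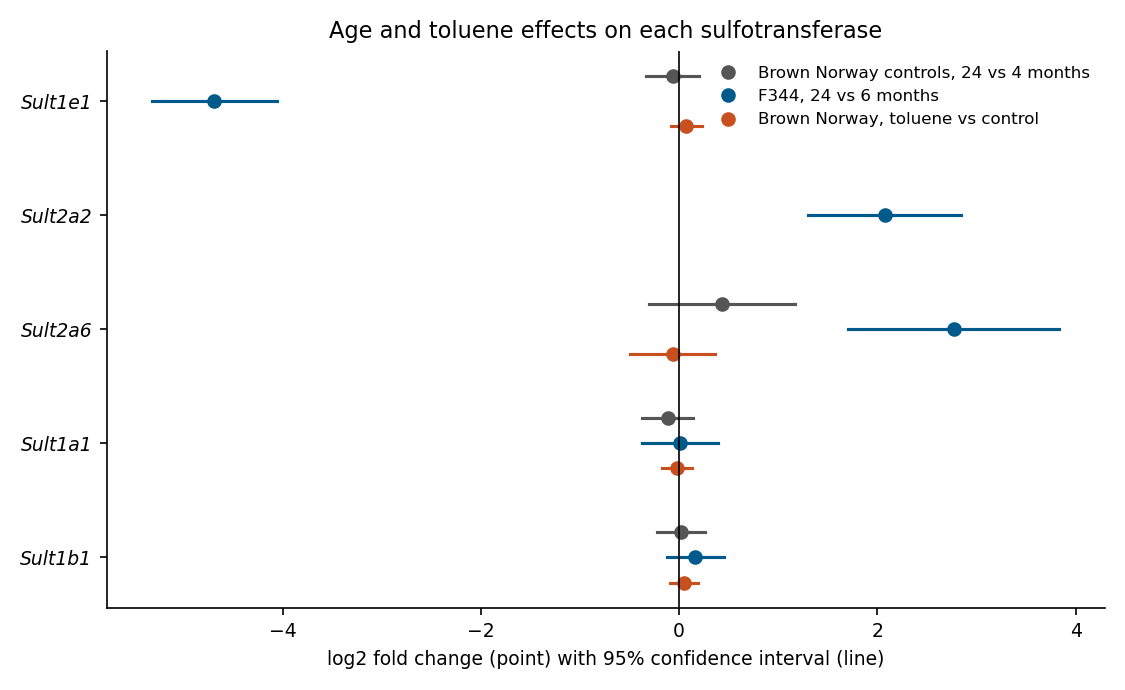
Log2 fold change (points) with its 95% confidence interval (lines) of each sulfotransferase for Brown Norway controls of 24 against 4 months, F344 rats of 24 against 6 months, and toluene-dosed against control Brown Norway rats over the ages. For Sult1e1 the Brown Norway age estimate is -0.07 and the F344 one -4.69; Sult2a2 was tested in F344 rats alone, and its point there is a lower bound.

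Other cytosolic sulfotransferases fell or did not pass in old F344 rats. Of the 10 listed, 5 were tested in F344 rats, and between 24 and 6 months 3 fell, all of them Sult1c genes, and 0 rose, where 7.40% of all genes passed in either direction. Sult1c3 had signals of 2508, 2994, 1734 and 2392 at 24 months, against 3901, 4052, 4359 and 4402 at 6 months. The groups did not overlap, and the log2 fold change was -0.82 (SE 0.14, limma adjusted p = 0.00158). Sult1c2 averaged 203 ± 39.3 at 24 months and 443 ± 58.3 at 6 months (SD, n = 4 each; log2 fold change -1.14, adjusted p = 0.00516). Sult1c2a averaged 1041 ± 84.8 at 24 months and 1407 ± 78.3 at 6 months (SD, n = 4 each; log2 fold change -0.44, adjusted p = 0.0205). Over the F344 arrays Pearson's r was 0.874 between Sult1c2 and Sult1c2a, 0.629 between Sult1c2 and Sult1c3 and 0.688 between Sult1c2a and Sult1c3. The 3 calls are therefore not independent, and whether these probe sets read each other's RNA was not tested. Without the 5 arrays of high GAPDH ratio, Sult1c3 still passed (-0.84, adjusted p = 0.0325) while Sult1c2 (-1.06, adjusted p = 0.0702) and Sult1c2a (-0.50, adjusted p = 0.0684) did not. Sult1c3 also fell against 18 months (-0.71, adjusted p = 0.0120) and 11 months (-0.68, adjusted p = 0.00891), and Sult1c2 against 11 months (-0.86, adjusted p = 0.0373). The Sult1c2 call against 11 months was lost under 10 of 20 alternatives (-1.14 to -0.59, limma adjusted p up to 0.130), and 1 array of 11 months stood apart at 623.7.

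In Brown Norway rats of 24 months, toluene-dosed and control animals were apart for Sult1c3, with 3211, 3208 and 3534 in dosed rats, against 2354, 2677 and 2688 in controls, although the test did not pass (log2 difference 0.37, limma adjusted p = 0.443). Sult1c2a was also apart there, at 947, 946 and 1155 in dosed rats, against 694, 890 and 789 in controls (0.36, adjusted p = 0.586). The other tested sulfotransferases overlapped at 24 months, and all of them did at 4 and 12 months. How many of all genes were apart in this way was not counted, so no toluene effect is read from it. Sult1c3 averaged 3292, 3264 and 2573 in controls of 4, 12 and 24 months, and 3286, 3059 and 3318 in dosed rats. In controls the log2 difference of 24 from 4 months was -0.58 for Sult1c2, -0.42 for Sult1c2a and -0.36 for Sult1c3. None of these passed. Minus the F344 differences of 24 from 6 months they gave 0.56, 0.02 and 0.46, which did not pass either. The Sult1c fall is thus not read as particular to F344 rats. Replicate 3 of the 12-month dosed rats had the lowest signal of its strain for all 3 Sult1c genes, at 148 for Sult1c2, 581 for Sult1c2a and 2050 for Sult1c3. Sult2b1, a cholesterol sulfotransferase of skin, and Sult5a1 stayed near the floor in F344 rats (log2 differences of 24 from 6 months 0.03 and 0.24, adjusted p = 0.914 and 0.562). Sult4a1 had a probe set with values in F344 rats alone, was below the floor on 13 of 16 arrays there and was not tested.

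**Figure D5:**
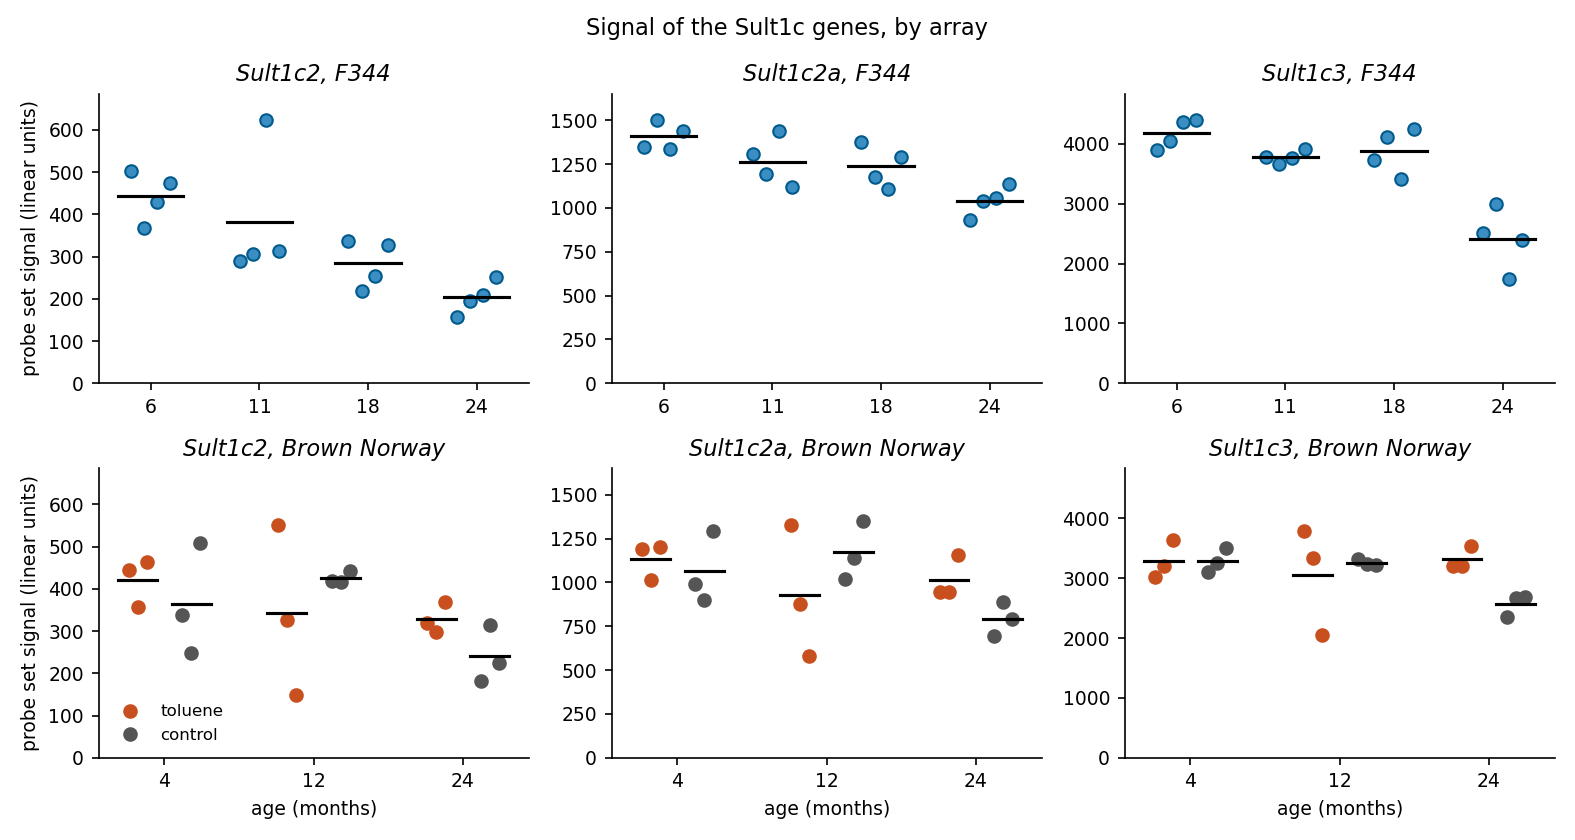
Signal of Sult1c2, Sult1c2a and Sult1c3 on each array (points, linear axis from 0) by age in months, in F344 rats (top, n = 4 per age) and Brown Norway rats (bottom, toluene-dosed left of control, n = 3 per group), with the group mean as a bar. In F344 rats of 24 months Sult1c3 lies between 1734 and 2994, below every 6-month array.

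The genes around the sulfonate donor and the other conjugations are read against the 7.40% of all genes that passed between 24 and 6 months in F344 rats, and 1 call in a list of 6 to 14 genes is not far from that share. Of 6 genes tested for PAPS synthesis, transport and recycling, 0 rose and 1 fell: Slc35b2, a carrier that brings PAPS into the Golgi, at 72.6 ± 9.25 at 24 months and 106 ± 9.01 at 6 months (SD, n = 4 each; log2 fold change -0.55, limma adjusted p = 0.0112). The PAPS synthases, named outside the rule for named genes, did not pass: the log2 difference was -0.42 for Papss2 (adjusted p = 0.181) and 0.34 for Papss1 (adjusted p = 0.214). Of 14 genes of sulfate supply, 0 rose and 1 fell, the sulfate transporter Slc13a4, at 140 ± 63.4 at 24 months and 619 ± 114 at 6 months (SD, n = 4 each; log2 fold change -2.23, adjusted p = 0.00102). The median log2 difference was -0.23 over the PAPS genes and -0.20 over the sulfate genes, against -0.01 over all genes tested.

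Of 8 sulfatases and their activators, 0 rose and 1 fell: Sts, the steroid sulfatase that removes sulfate from steroids, at 69.2 ± 18.8 at 24 months and 152 ± 35.2 at 6 months (SD, n = 4 each; log2 fold change -1.15, limma adjusted p = 0.0180). Of 6 glycan and protein sulfotransferases, 0 rose and 1 fell, the tyrosine sulfotransferase Tpst1 (log2 fold change -0.74, adjusted p = 0.0319). Of 6 genes of glucuronidation, the other main conjugation, Ugt2b10 rose (0.50, adjusted p = 0.0154) and Ugp2, which makes UDP-glucose, fell (-0.77, adjusted p = 0.00177). The median log2 differences of these 3 lists were -0.09, -0.07 and -0.09, against -0.01 over all genes tested, of which 7.40% passed. Against 11 months, Slc35b2 (-0.54), Slc13a4 (-2.07), Sts (-1.09), Ugp2 (-0.73) and Ugdh, which makes UDP-glucuronate (-0.39, adjusted p = 0.0318), fell as well.

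Of 14 receptors and factors known to act on Sult genes, 1 passed, as higher at 24 months, and 0 fell. Cux2, a transcription factor known in mouse liver for a higher level in females, had signals of 115 to 160 at 24 months and was below the floor on all 4 arrays of 6 months, at least 4.32-fold higher (log2 fold change at least 2.11, limma adjusted p = 1.07e-07). At 11 months it was at 18.4 to 51.5 and at 18 months at 23.0 to 35.3, with 3 of 4 arrays below the floor at each age. Like Sult2a2, it was tested only through its 24-month arrays. The median log2 difference over the 14 was -0.24. In Brown Norway rats the single gene of these lists that passed for toluene over the ages was Ahr, the receptor for planar aromatic compounds, which rose (log2 fold change 0.75, adjusted p = 0.0291). There 0.0699% of all genes passed. Ahr averaged 122 in dosed and 67.3 in control rats at 4 months, and 173 and 81.2 at 12 months. At 24 months the means were 79.5 and 67.2, and the arms overlapped. It passed at no single age, and in F344 rats it was below the floor on every array.

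The genes most like each sulfotransferase over the 16 F344 arrays were ranked by Pearson's r of log2 signal, as a description, since the arrays share ages and RNA quality. Sult1e1 ran with Cyp2c11, a cytochrome P450 known as male-specific in rats (r = 0.994), Hsd3b5 (0.989), Obp3 (0.987), Ust5r (0.983) and Cyp3a2 (0.981). Sult2a2 ran with Slc39a10 (0.939), A1bg (0.936), Scd2 (0.935), Spsb4 (0.909) and Npl (0.899), but it was below the floor on 12 of the 16 arrays, so that its ranking rests on the step at 24 months. Sult2a6, in contrast, had other genes at the top: Nae1 (0.948), Echdc1 (0.937), Rpl4 (0.930), Irgm (0.930) and Ipo7 (0.919). Sult1a1 ran with Pierce2 (0.922), Ndufb11 (0.919), Ndufb6 (0.917), Eif2b2 (0.907) and Aamp (0.905), and Sult1b1 with Oma1 (0.966), Lgals9 (0.913), Sqor (0.910), Capza2 (0.909) and Herc4 (0.907). Slc39a10 (-0.991) and A1bg (-0.973) were among the 3 genes of lowest r with Sult1e1, and Cyp2c11 (-0.948) among the 3 of lowest r with Sult2a2. Between Sult1a1 and Sult1b1 r was 0.71.

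Over the 18 Brown Norway arrays the highest values were 0.779 for Sult1e1 with Tent2, 0.835 for Sult2a6 with C5h1orf174, 0.776 for Sult1a1 with Foxa1 and 0.797 for Sult1b1 with Papola. The next 4 genes for Sult1e1 were Cyp2c6v1 (0.779), Akr1c14 (0.774), Vps26a (0.730) and Cyp2a1 (0.728). None of the 5 genes most like Sult1e1 in F344 rats was among the 5 in Brown Norway rats. Lists this short from so many genes seldom share a member, and Sult1e1 varied 1.39-fold over the Brown Norway arrays. No strain difference is read from this.

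Some markers of other liver cells moved with age as well. Between 24 and 6 months in F344 rats, 3 of 8 macrophage markers tested rose (Cd68, Clec4f and Csf1r), as did 1 of 7 stellate cell markers (Dcn) and 2 of 3 lymphocyte markers (Cd8a and Klrd1), while 0 of 2 bile duct and 0 of 4 endothelial markers passed, where 7.40% of all genes did. Cd8a was below the floor on all arrays of 6 and 11 months, so it was tested only through older arrays. Its rise is a bound set against the floor and is not read against that share. Of 11 hepatocyte markers 1 fell, Pck1, and their summed signal was 64479 to 66525 at 24 months and 64370 to 67297 at 6 months. The summed macrophage markers were 3381 to 4519 at 24 months and 2097 to 2979 at 6 months, without overlap. The summed lymphocyte markers were 284 to 346 at 24 months and 117 to 170 at 6 months, and the bile duct markers 259 to 301 at 24 months and 114 to 197 at 6 months, also without overlap. At 6 months 4 of 6 lymphocyte and 3 of 5 bile duct markers were below the floor on all arrays. The sums were taken without the floor and so hold values under it. How often other sums are apart in this way was not counted, so no rise is read from any of the sums. The stellate cell markers, at 1043 to 1772 at 24 months and 952 to 1456 at 6 months, overlapped, as did the endothelial markers, at 1389 to 1791 at 24 months and 1506 to 1659 at 6 months. Des, Krt7, Spp1, Cftr, Cd3e and Cd3d were below the floor on all arrays of both ages. In Brown Norway controls the summed macrophage markers were 3340 to 6272 at 24 months and 1694 to 2112 at 4 months. The lymphocyte sums were 340 to 432 and 148 to 180, with 5 of 6 markers below the floor throughout. In dosed rats of these ages both sums overlapped. Stellate cell and bile duct sums of controls overlapped. Of the listed genes, C1qb, Cd163 and Jchain rose in controls (log2 fold changes 1.60, 1.32 and 1.43), where 0.245% of all genes passed. In this bulk tissue, fewer cells of a type and less RNA per cell cannot be told apart, and the part of cell composition in the sulfotransferase values was not tested.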

How the data were processed

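Liver RNA of 34 rats was hybridised to Affymetrix rat genome arrays, 1 per animal. The intensity values, as deposited, are on a linear scale; the submitters' processing notes name MAS5 and RMA with no role or order, and the arrays of a strain share a near common distribution. Versions of those tools are not given in the sources used here. Depth has no meaning for arrays, and the number of arrays limits the precision. Signals under 32 were set to 32 and log2 was taken. Each gene was represented by its probe set of highest mean log2 signal in the strain, and tested if it exceeded that floor on 3 or more arrays in Brown Norway (8584 genes) or 4 or more in F344 rats (9206 genes). Group means were fitted per strain with limma 3.58.1 in R 4.3.3, with Benjamini-Hochberg adjustment over all genes tested and a threshold of 0.05. Strain differences were tested from both estimates with their standard errors over 7956 genes with 1 common probe set. Gene symbols come from the platform annotation, and the annotated identifier of Sult1e1 matched RefSeq by accession. Named were the 5 genes, the other sulfotransferases with a probe set, up to 4 list genes of smallest adjusted p per comparison among those that passed, and the 5 genes of highest r. The members, lists and motifs were chosen with earlier results of these data known. The alternatives changed the probe set choice, the scaling, the floor, the filter, the variance model, the weights, the samples fitted and the treatment of the GAPDH ratio, and left out each array in turn. The tests were checked on simulated data.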

Additional observations from a re-analysis of the deposited data

Results flagged for a closer look

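In F344 rats of 18 months, the lowest array for Sult2a6, at 199.5, lay far from the other 3 arrays of its group, by Dixon's criterion. It is also the array of that age with the highest GAPDH ratio, 5.31, and its Sult1a1 and Sult1b1 signals were the lowest of the group. The part of the ratio was not tested. Among the other sulfotransferases of F344 rats, the highest 11-month array for Sult1c2 stood apart at 623.7, the highest 18-month array for Sult2b1 at 33.3, just over the floor with the others below it, and the highest 11-month array for Sult5a1 at 47.7, likewise with the others below the floor. In all, 37 groups were examined, and chance marks about 1 in 20 such groups. For Sult2b1 and Sult5a1 the other 3 arrays were set to the floor, which fixed the outcome, so these are not read against that rate.

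The age effect on Sult1e1 differed between the strains by 4.62 on the log2 scale, Brown Norway controls of 24 against 4 months minus F344 rats of 24 against 6 months, as tested in the comparison of the strains.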

How the results depend on the processing

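The counts of sulfotransferases that passed were recomputed under 459 alternatives over all comparisons, and 454 stayed within 1.5 times the value reported. Most of these alternatives belong to comparisons in which no sulfotransferase passed, where the count had little room to move. The limit of 1.5 times also takes a change from 3 to 2 as unchanged, such as the loss of the Sult2a6 call between 24 and 11 months. The F344 counts here and the single-gene counts below include Sult2a2, whose calls were built in by the filter. Its calls that stayed add no support. Between 24 and 18 months in F344 rats the count was 2 and became 1 with a floor 4 times as high and with the compared groups alone. For the strain difference in old age the count was 1 and became 2 with a floor of 8, and ranged from 1 to 2 with each array left out. It was 2 without replicate 3 of the 24-month Brown Norway controls and without replicate 4 of the 6-month F344 rats, where Sult2a6 passed at -2.55 and -2.64. The cause was not tested. Between 24 and 6 months the 3 calls became 2 once the arrays with a GAPDH ratio above 2.5 were dropped, where Sult2a2 was lost with 11 arrays left, and 2 with a floor 4 times as high, where Sult2a2 was not tested.

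For single genes, 2031 of 2070 alternatives kept the direction of a call and its side of the threshold, 34 lost a call, 5 gained one and 0 reversed a called gene. Most of the 2070 were for genes that were not called, which cannot lose a call and for which a change of sign was not counted. The 34 losses therefore all fall on the smaller part that was called. Sult1e1 passed between 24 and 6 months under all 20 alternatives run (-5.00 to -4.39), as did Sult2a6 (2.27 to 3.07). The Sult2a6 call between 24 and 11 months was lost under 10 of 20 (1.20 to 2.10 on the log2 scale, adjusted p up to 0.105), among them leaving out any array of 24 months or replicates 1, 2 or 3 of 11 months. Dropping the high-ratio arrays gave 1.30 and taking the ratio as a covariate 1.20. The Sult2a6 difference between 24 and 18 months passed with array weights (1.28), without the arrays of high ratio (1.22) and with the ratio as a covariate (1.50). The Sult1c2 call between 24 and 11 months was lost under 10 of 20. No paired analysis was possible because the labels give no numbers that the groups share. Signals below the floor limit what can be said of Sult2a2, and 3 or 4 animals per group limit the rest.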
